A study of Mus musculus with 6 samples.

Results

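Tumours grown from hairpin 2 melanoma cells were compared with tumours grown from hairpin 1 melanoma cells, under matched treatment, by single-cell RNA sequencing. Both cell lines were made from the mouse melanoma line Yumm5.2, which grows in culture, and carried a short hairpin RNA (shRNA) against Cdkn2a together with 1 of 2 hairpins against Slc39a9, which the labels call shSlc39a9 #1 and shSlc39a9 #2. The comparison rests on 4 of the 6 libraries of the series, in which each line was treated with IgG or with anti-PD1. Members are barcodes with at least 500 UMIs (unique molecular identifiers, so that copies made by PCR count once), at least 300 genes and at most 20% mitochondrial UMIs. They numbered 5081 (IgG) and 6177 (anti-PD1) for hairpin 1 and 7736 and 8262 for hairpin 2, together 27256 of 43843 in all 6. The remaining 2 libraries, with the Cdkn2a hairpin and a control hairpin (IgG and anti-PD1), entered the model fits, where they add to the estimate of the spread. Every line thus carried the Cdkn2a hairpin, and no library lacked it.

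Per the labels, hairpins were delivered with the pLKO.1 vector, infected cells were selected with 2 drugs, and 350000 cells were implanted under the skin of the right flank of C57BL/6 mice. Mice received 200 µg of anti-PD1, an antibody that blocks the PD-1 receptor on T cells, or of an IgG2a control, 3 times a week, and tumours were collected at 0.5 cm3. The labels give 1 line per hairpin, and neither the number of tumours in a library nor the age or sex of the mice. A line and treatment has 1 library, so the 2 libraries of a line differ in treatment. P-values therefore measure the spread between libraries of a line after a common treatment term, not the spread between independently made lines or between mice. The effect of a hairpin sequence, of its knockdown strength and of the history of the infected line cannot be told apart.

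SLC39A9 (ZIP9) belongs to the ZIP family, membrane proteins that carry zinc into the cytoplasm from outside the cell or from organelles. Free cytoplasmic zinc is sensed by the transcription factor MTF1, which binds metal response elements in the promoters of metallothioneins and of the zinc exporter gene Slc30a1. Type I interferons act through the ISGF3 complex, which binds interferon-stimulated response elements in promoters of antiviral genes in tumour and host cells alike. Macrophages and monocytes are abundant host cells in implanted melanomas, and their state ranges from interferon-activated to wound-healing programmes in which Arg1 and Vegfa are high.

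The promoters of 4 genes that were called higher in hairpin 2 tumour-line cells are shown because metallothioneins and antiviral genes are the known targets of the 2 elements named above. The sequences are the 250 bases before the start of the gene in RefSeq on GRCm38.p6, read 5′ to 3′ on the strand of the gene. Capitals mark matches, on either strand, to a metal response element core (TGCACNC or TGCGCNC) in Mt2 and Mt1 and to an interferon-stimulated response element core (GAAANNGAA) in Ifit1 and Isg15. Mt2 lies at chr8:94172368-94172617 (plus strand), Mt1 at chr8:94178839-94179088 (plus), Ifit1 at chr19:34640639-34640888 (plus) and Isg15 at chr4:156200819-156201068 (minus).
Mt2: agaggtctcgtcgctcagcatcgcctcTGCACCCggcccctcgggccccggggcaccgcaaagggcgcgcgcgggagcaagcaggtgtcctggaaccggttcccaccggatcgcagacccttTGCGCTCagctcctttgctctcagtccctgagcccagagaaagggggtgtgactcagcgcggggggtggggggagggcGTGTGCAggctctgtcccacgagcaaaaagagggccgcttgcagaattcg
Mt1: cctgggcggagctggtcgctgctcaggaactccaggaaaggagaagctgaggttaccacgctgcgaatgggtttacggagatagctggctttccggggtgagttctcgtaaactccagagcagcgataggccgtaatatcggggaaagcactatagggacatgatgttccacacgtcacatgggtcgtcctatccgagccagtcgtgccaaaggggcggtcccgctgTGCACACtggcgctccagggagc
Ifit1: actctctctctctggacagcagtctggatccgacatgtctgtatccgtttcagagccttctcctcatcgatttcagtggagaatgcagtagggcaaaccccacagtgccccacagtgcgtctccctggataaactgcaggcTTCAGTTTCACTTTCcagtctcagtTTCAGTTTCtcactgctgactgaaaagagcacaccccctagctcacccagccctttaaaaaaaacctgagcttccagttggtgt
Isg15: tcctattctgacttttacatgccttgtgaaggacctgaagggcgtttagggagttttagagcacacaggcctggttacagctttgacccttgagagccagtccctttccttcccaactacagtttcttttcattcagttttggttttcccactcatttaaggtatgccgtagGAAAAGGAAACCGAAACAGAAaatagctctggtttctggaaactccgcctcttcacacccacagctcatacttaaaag
The Mt2 window held 3 matches and the Mt1 window 1. Bases outside a window were not searched, so these are not counts of all elements of a gene. Ifit1 and Isg15 held 3 each, and matches that share bases were counted separately. Among 27025 mouse promoter windows of this length, 21.3% held at least 1 of the metal cores (TGCACNC 10.2%, TGCGCNC 12.6%) and 7.16% held GAAANNGAA. All 7 called genes of metallothioneins and zinc exporters were in the RefSeq table and 5 of them held a metal core. Of 13 called type I interferon genes 9 were in the table, of which 6 held GAAANNGAA. A match is a description of these letters and not evidence of binding.

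The 4 libraries held 58859821 to 81433435 UMIs, and 0.866% to 1.66% of the barcodes of a library in the series were removed as doublets. Clusters were made from all 6 libraries. Tumour-line cells were the 9 clusters (0 to 8) in which Xist was more than 10 times the summed Y-linked genes, and the opposite pattern marked host cells. The labels give the sex of neither, so this assignment is an assumption. No tumour-line cluster qualified as melanoma-like by its markers: summed melanoma markers in these cells were at 79.6 to 105 CPM in the 4 libraries, where CPM is the counts-per-million value of a gene in the UMI sum. Median depth of tumour-line cells was 12777, 9722, 9070 and 9620 UMIs, and that of macrophage/monocyte-like cells 3808, 2822, 2112 and 2246 UMIs, with hairpin 1 before hairpin 2 and IgG before anti-PD1. Pairs among the 4 libraries shared 63.5% to 84.4% of the barcode names of the smaller library, and in each library the alphabetical order of names followed UMI depth (Spearman correlation -0.98 to -0.99). Shared names fell into the same cluster in 7.0% to 14.6% of cases against 6.4% to 10.8% from the mix of clusters, so shared names were not read as shared cells. All values below are CPM in UMI sums per library and class, the IgG library before the anti-PD1 library, and differences are log2 hairpin 2 minus hairpin 1 ± standard error. In such sums a lower level cannot be split into fewer expressing cells and less RNA per cell.

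The knockdown target was lower with hairpin 1 than with hairpin 2. Slc39a9 (ENSMUSG00000048833, mm10 chr12:80643883-80683342, plus strand) was at 8.50 and 8.49 CPM with hairpin 1 and at 12.1 and 11.2 CPM with hairpin 2 in tumour-line cells, while control libraries held 22.8 and 20.9 CPM. Both hairpin lines lay below the control line, and the libraries of the hairpin lines did not overlap. The difference was 0.49 ± 0.08 (edgeR adjusted p 0.0059) and had the same sign in 8 of 8 large clusters. In macrophage/monocyte-like cells, taken as host cells, Slc39a9 was at 26.2 and 22.6 CPM with hairpin 1 and at 28.3 and 26.6 CPM with hairpin 2, a difference of 0.15 ± 0.16 (edgeR adjusted p 0.682).

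Cdkn2a (ENSMUSG00000044303, mm10 chr4:89274471-89294653, minus strand), which encodes the cell cycle inhibitors p16INK4a and p19ARF and is targeted in every line, also differed. It was at 209 and 225 CPM with hairpin 1 and at 279.9 and 324 CPM with hairpin 2 and at 323 and 345 CPM in control tumour-line cells. Hairpin 1 libraries were the lowest of the 6, and the difference was 0.51 ± 0.06 (edgeR adjusted p 0.00148), again with 1 sign in 8 of 8 clusters. Macrophage/monocyte-like sums held Cdkn2a at 4.25% to 6.28% of the tumour-line level, and it differed there by 0.87 ± 0.21 (edgeR adjusted p 0.0134). That call was lost in DESeq2 and without hairpin 1 IgG (0.83), hairpin 2 anti-PD1 (0.81) or hairpin 2 IgG (0.91). In cluster 12, a host cluster described below, it was 0.90 ± 0.33 (edgeR adjusted p 0.112), and Slc39a9 was 0.16 ± 0.24 (edgeR adjusted p 0.801).

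Of 15971 genes tested in tumour-line cells, 4762 (29.8%) differed between the lines, 2461 higher in hairpin 2 (15.4%) and 2301 lower (14.4%). These shares are the background against which each group of genes below is read. Without hairpin 1 anti-PD1 the count was 2844, and without hairpin 2 anti-PD1 it was 3029. Within single large clusters it ran from 88 to 1769. The mix of clusters moved with the line: cluster 5, led by H19, Ogn and Postn, held 789 and 927 hairpin 1 cells against 103 and 200 hairpin 2 cells, and cluster 2, led by Saa3 and Mmp3, held 343 and 325 against 1449 and 1341. Cluster 1, led by genes that include Stmn2, Ubd and Lin28b, held 899 and 1145 against 502 and 571, and cluster 6, led by Prelp, 160 and 154 against 758 and 989. Genes that lead these clusters move with the mix, and its part in the differences was not tested. Of the genes named below, Mt1, Mt2, Slc39a14, Ifit3, Ifit3b, Isg15, Rsad2, Ubd, Gbp5, Gbp8, Gbp9, Tgtp2, Psmb8, Sparcl1, Mmp3, Mmp9, Mmp10, Serpine2, Timp3, Hp, Il11, Cxcl12, Grem1, Tgfb3, Angptl4, Cdkn1a, Mcm5, Mest, Hoxb9, Osr2, Nefl, Penk and Thbs2 had the opposite sign in at least 1 large cluster. For Mmp3 the values within clusters ran from -1.35 to 2.44.

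Of the zinc genes, metallothioneins and exporters gave more calls higher than lower in hairpin 2. Of 10 tested metallothionein and zinc exporter genes, 6 were called higher, against 15.4% of all tested genes, and 1 lower (median log2 0.46, all tested genes -0.00). Mt2, a metallothionein that binds zinc, was at 333 and 280.0 CPM with hairpin 1 and at 503 and 590.1 CPM with hairpin 2. Both hairpin 2 libraries were above both hairpin 1 libraries and below the control libraries (768 and 809.5), with a difference of 0.87 ± 0.11 (edgeR adjusted p 0.00218). Slc30a1, the exporter of the plasma membrane, was at 6.22 and 4.70 CPM with hairpin 1 and at 8.73 and 9.69 CPM with hairpin 2 and at 12.9 and 11.9 CPM in the control line. The groups did not overlap, and the difference was 0.79 ± 0.15 (edgeR adjusted p 0.00785). Mtf1, which encodes the zinc sensor, was at 20.2 and 18.4 CPM with hairpin 1 and at 27.6 and 27.7 CPM with hairpin 2 (0.55 ± 0.07).

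Mt1, the neighbouring metallothionein gene, had 0.56 ± 0.15 (edgeR adjusted p 0.0316). Its call was lost in DESeq2 and when the anti-PD1 library of hairpin 1 (0.26) or of hairpin 2 (0.32) was left out, and within clusters it ran from -0.18 to 0.56. The Golgi zinc transporter gene Slc30a7 was lower in hairpin 2 (-0.25 ± 0.05), a call lost when hairpin 1 anti-PD1 (-0.23) or hairpin 2 IgG (-0.23) was left out. Among 13 tested ZIP importers, 2 were called higher and 0 lower (median 0.13), a share like that of all tested genes, and 4 were called higher without hairpin 1 IgG. These were Slc39a9 itself and Slc39a14, a zinc and iron importer, at 76.9 and 82.4 CPM with hairpin 1 and at 103 and 102 CPM with hairpin 2 (0.40 ± 0.06).

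Many type I interferon response genes were higher in hairpin 2 tumour-line cells. Of 27 tested, 13 were called higher and 0 lower, with a median of 0.85. Ifit1, an antiviral RNA-binding protein, was at 6.38 and 7.20 CPM with hairpin 1 and at 18.2 and 29.4 CPM with hairpin 2. Both hairpin 2 libraries were above both hairpin 1 libraries, and anti-PD1 was the higher of the hairpin 2 pair (1.81 ± 0.14, edgeR adjusted p 0.000452). Isg15, a ubiquitin-like protein, was at 23.3 and 30.1 CPM with hairpin 1 and at 50.3 and 75.4 CPM with hairpin 2 and at 25.4 and 26.3 CPM in the control line. Hairpin 1 was thus at the control level and hairpin 2 above it (1.26 ± 0.12, edgeR adjusted p 0.000794).

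Rsad2, which encodes the antiviral enzyme viperin, was at 2.59 and 4.19 CPM with hairpin 1 and at 7.01 and 17.4 CPM with hairpin 2 (1.82 ± 0.28). Ifit3 was at 8.12 and 6.32 CPM with hairpin 1 and at 29.9 and 29.98 CPM with hairpin 2 (2.09 ± 0.11) and its near-identical neighbour Ifit3b differed by 2.38 ± 0.15, and reads of this pair are uncertain between them. Ifit1 was higher in hairpin 2 in 8 of 8 large clusters and Isg15 in 7 of 8, while the median of the list within single clusters ran from -0.28 to 1.30. The count called higher was 8 when either anti-PD1 library was left out, 12 without hairpin 1 IgG and 19 without hairpin 2 IgG.

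Several MHC class I genes were lower in hairpin 2, while the balance of calls among interferon gamma response genes depended on the library left out. Of 25 tested genes of interferon gamma GTPases and chemokines, 6 were called lower and 1 higher (median -0.06). Without hairpin 2 IgG the balance turned to 2 lower and 8 higher. It was 3 and 1 without hairpin 1 IgG and 10 and 0 without hairpin 2 anti-PD1, and the median ran from -0.53 to 0.28 with 1 hairpin library left out. Ubd, a ubiquitin-like protein induced by interferon gamma, was at 3.19 and 4.596 CPM with hairpin 1 and at 0.200 and 0.732 CPM with hairpin 2. Control libraries held 0.323 and 0.228 CPM, so hairpin 1 alone stood above 1 CPM (-3.05 ± 0.39, edgeR adjusted p 0.00202, -4.09 without hairpin 2 anti-PD1). Gbp5, a guanylate-binding protein, was the member called higher (0.98 ± 0.28), a call lost without each of hairpin 1 IgG (0.83), hairpin 1 anti-PD1 (1.15) and hairpin 2 anti-PD1 (0.58). Gbp8 (-0.86 ± 0.25), Gbp9 (-0.98 ± 0.27) and Tgtp2 (-1.30 ± 0.37), GTPases of the same response, were called lower. Tgtp2 was at -2.01 without hairpin 1 anti-PD1, and without hairpin 2 anti-PD1 Tgtp2 was at -2.08 and Gbp9 at -1.57. Their calls were lost without hairpin 1 IgG (-0.49, -0.64 and -0.64) and without hairpin 2 IgG (-0.43, -0.48 and -0.61), and their median within large clusters was above 0 (0.078, 0.10 and 0.35). DESeq2 did not call Tgtp2.

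Of 22 tested MHC class I genes 10 were called lower in hairpin 2 and 0 higher, with a median of -0.47. Within single large clusters the median ran from -0.43 to 0.07, with 0 to 7 called lower and 0 to 2 higher. H2-K1, a class I heavy chain, was at 216 and 201 CPM with hairpin 1 and at 81.1 and 92.0 CPM with hairpin 2 and at 42.2 and 51.7 CPM in the control line. Hairpin 1 had the highest 2 libraries of the 6, hairpin 2 was intermediate, and the difference was -1.24 ± 0.10 (edgeR adjusted p 0.000423), negative in 8 of 8 clusters (-2.18 to -0.71). H2-Q4, another heavy chain, was at 3.52 and 2.34 CPM with hairpin 1 and at 0.585 and 0.898 CPM with hairpin 2 (-1.94 ± 0.32, -1.36 without hairpin 1 IgG), and reads of these paralogs are uncertain. Psmb8, a subunit of the immunoproteasome that trims peptides, had -0.90 ± 0.24, a call lost in DESeq2 and without hairpin 1 IgG (-0.59) or hairpin 2 IgG (-0.40).

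The collagen list, which also holds Lox, Loxl1, Loxl2, Plod2 and Serpinh1, gave the most called members in 1 direction among the tumour-line lists. Of its 25 tested genes 17 were called lower in hairpin 2 and 0 higher (median -0.54), Lox (-0.48) being 1 of them. Leaving out 1 hairpin library gave 16 or 17 called lower. Col1a2, a chain of fibrillar collagen I, was at 3221 and 3810.1 CPM with hairpin 1 and at 1390.4 and 1568 CPM with hairpin 2. Control libraries held 1152 and 1258 CPM, close to hairpin 2, and the groups did not overlap (-1.21 ± 0.06, edgeR adjusted p 0.000134). Col5a2, a chain of collagen V, was at 372 and 448 CPM with hairpin 1 and at 136 and 165 CPM with hairpin 2 (-1.41 ± 0.07), and Col7a1, the anchoring fibril collagen, at 84.7 and 118 CPM with hairpin 1 and at 16.7 and 28.6 CPM with hairpin 2 (-2.15 ± 0.10). The fibroblast and pericyte markers share Col1a1 and Col3a1 with the collagen list, so their sum is not independent of it. In tumour-line sums these markers were at 2468 and 2642 CPM with hairpin 1 and 1637 and 1847 CPM with hairpin 2. Of 14 tested, 4 were called higher and 6 lower, and their part in the result was not tested.

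Of 28 matricellular and matrix glycoprotein genes 15 were called lower and 7 higher (median -0.34). Ogn (osteoglycin, a small leucine-rich proteoglycan; ENSMUSG00000021390, mm10 chr13:49608046-49624501, plus strand) had the largest difference among the genes named by rank. It was at 54.0 and 56.3 CPM with hairpin 1 and at 3.79 and 5.26 CPM with hairpin 2, with controls at 5.78 and 6.41 CPM, so that only the hairpin 1 libraries were above 10 CPM (-3.58 ± 0.11, edgeR adjusted p 0.000106). Postn (periostin), at 138 and 198 CPM with hairpin 1 and at 16.3 and 16.9 CPM with hairpin 2, and Sparcl1, a SPARC-related glycoprotein, at 31.9 and 52.4 CPM with hairpin 1 and at 3.70 and 7.86 CPM with hairpin 2, showed the same order (-3.29 ± 0.16 and -2.85 ± 0.23). Among the members higher in hairpin 2, Tnxb (tenascin X) was at 0.491 and 0.554 CPM with hairpin 1 and at 2.54 and 2.79 CPM with hairpin 2 (2.38 ± 0.20), Thbs2 (thrombospondin 2) at 951 and 857 CPM with hairpin 1 and at 1223 and 1526 CPM with hairpin 2 (0.64 ± 0.11) and the proteoglycan Prelp at 10.5 and 11.6 CPM with hairpin 1 and at 25.5 and 33.3 CPM with hairpin 2 (1.44 ± 0.09). The matrix list therefore split by member rather than moving as 1 group.

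Matrix proteases and their inhibitors were divided as well, with 6 of 22 called higher and 5 lower (median -0.02). Mmp3 (stromelysin 1) was at 386 and 275 CPM with hairpin 1 and at 1062 and 889 CPM with hairpin 2 (1.61 ± 0.08), and Mmp10 (stromelysin 2) at 297 and 282 CPM with hairpin 1 and at 518 and 619 CPM with hairpin 2 (1.01 ± 0.12). Serpine2, an inhibitor of serine proteases, was at 11.8 and 26.6 CPM with hairpin 1 and at 58.9 and 75.9 CPM with hairpin 2 (1.91 ± 0.20). In these 3 genes the hairpin 2 libraries were above both hairpin 1 libraries. The gelatinase genes Mmp9 (43.3 and 65.1 CPM against 20.7 and 28.8 CPM; -1.09 ± 0.12) and Mmp2 (495 and 567 CPM against 265 and 299 CPM; -0.88 ± 0.07) and the inhibitor Timp3 (1203 and 1347 CPM against 383 and 576 CPM; -1.39 ± 0.16) were lower in hairpin 2.

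**Figure D1:**
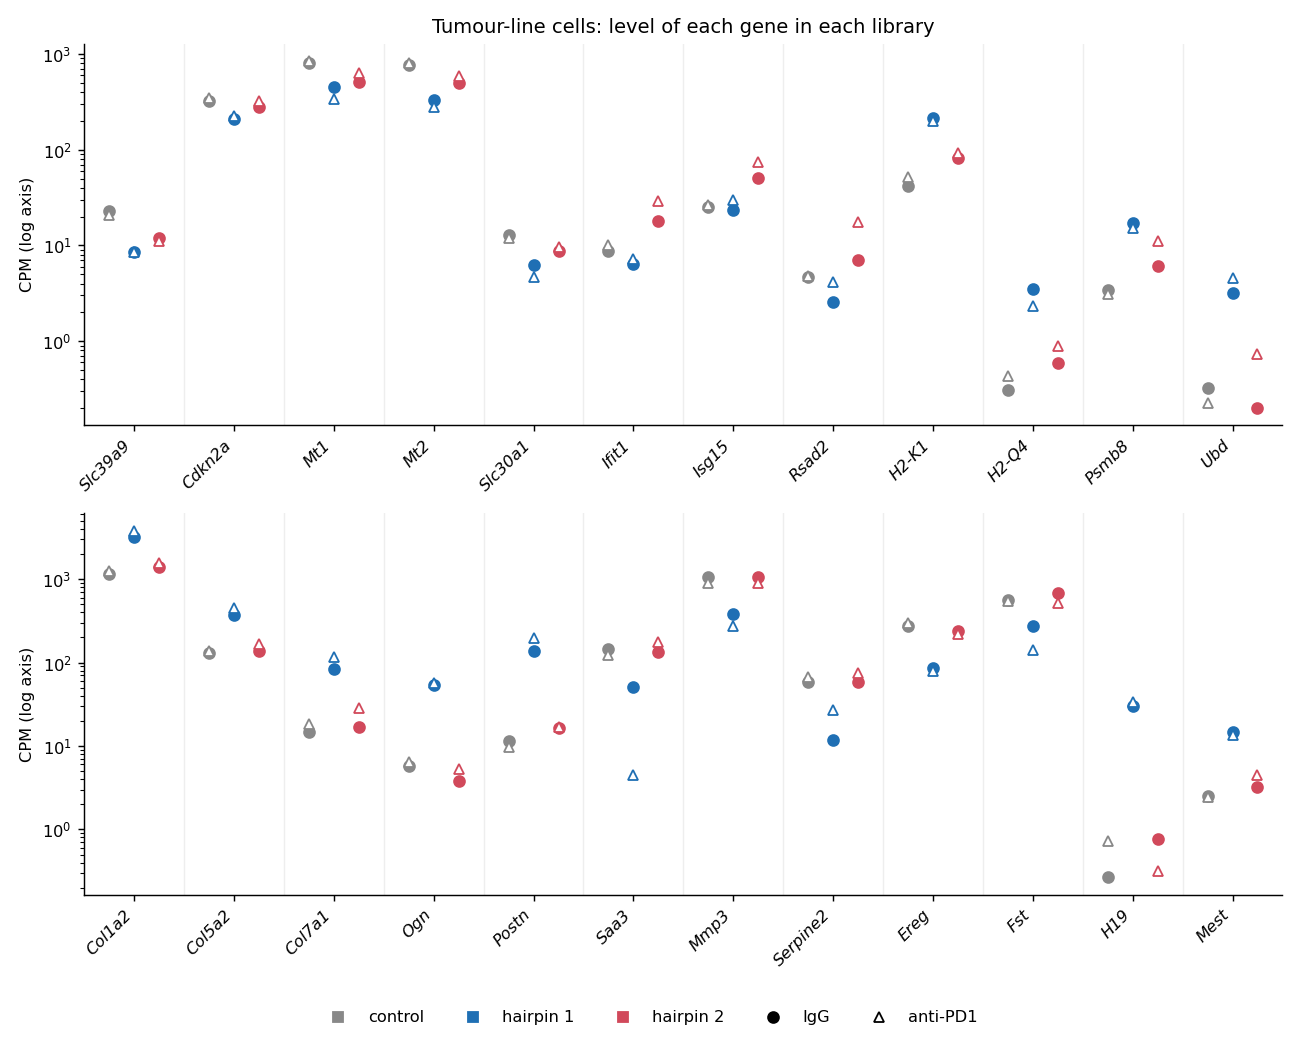
Level (CPM, log axis) of the targets and of 22 further genes in tumour-line cells, 1 point per library, with the line in colour and the treatment as the symbol. Ereg and Mmp3 are lowest in the hairpin 1 libraries, and Col1a2, Ogn, Postn and H19 highest there, with the control libraries on the side of hairpin 2.

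Acute-phase and antimicrobial genes were more often called higher than lower in hairpin 2. Of 19 tested acute-phase and antimicrobial genes 9 were called higher and 4 lower (median 0.98). Saa3, an acute-phase serum amyloid, was at 51.3 and 4.49 CPM with hairpin 1 and at 135 and 177 CPM with hairpin 2 and at 144 and 123 CPM in the control line. The hairpin 1 anti-PD1 library was the lowest of all, and its pair differed more than 10-fold (2.84 ± 0.77, edgeR adjusted p 0.0319). The Saa3 call was lost without hairpin 2 anti-PD1 (1.98) and in DESeq2, and leaving out hairpin 1 IgG, hairpin 1 anti-PD1 or hairpin 2 IgG gave 5.20, 1.58 or 3.92. Hp (haptoglobin, which binds free haemoglobin) was at 1.09 and 1.72 CPM with hairpin 1 and at 8.11 and 8.23 CPM with hairpin 2 (2.61 ± 0.19, edgeR adjusted p 0.00036), and Lcn2, a siderophore-binding protein, at 5.17 and 3.82 CPM with hairpin 1 and at 13.7 and 23.1 CPM with hairpin 2 (2.05 ± 0.28). Neither gene overlapped between the lines. The acute-phase count called lower was 2 without hairpin 1 anti-PD1 or hairpin 2 IgG.

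Chemokines and cytokines controlled by NF-kB split 7 higher and 5 lower of 24 (median 0.28). Il11, a cytokine of the IL-6 family, was at 6.35 and 5.05 CPM with hairpin 1 and at 14.6 and 15.6 CPM with hairpin 2 (1.43 ± 0.14), and Nos2, the inducible nitric oxide synthase, at 0.719 and 0.390 CPM with hairpin 1 and at 2.89 and 2.20 CPM with hairpin 2 (2.25 ± 0.23). Vcam1, an adhesion molecule for leukocytes, went the other way at 193 and 239.9 CPM with hairpin 1 and at 56.6 and 77.2 CPM with hairpin 2 (-1.66 ± 0.13, edgeR adjusted p 0.000391). Cxcl12, the ligand of CXCR4, was also lower, at 23.2 and 30.2 CPM with hairpin 1 and at 12.6 and 8.12 CPM with hairpin 2 (-1.33 ± 0.22). The split was 8 and 8 without hairpin 1 IgG, and the count called lower was 3 without hairpin 1 anti-PD1 or hairpin 2 IgG.

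Growth factor genes were described by family. In the list of EGF ligands, ERBB receptors and ERK targets 11 of 23 were called higher in hairpin 2 and 1 lower (median 0.27). Ereg (epiregulin), a ligand of the EGF receptor, was at 85.7 and 78.5 CPM with hairpin 1 and at 236 and 218 CPM with hairpin 2, with controls at 275 and 299.8 CPM. Hairpin 1 stood apart from the other 2 lines, and the difference of 1.50 ± 0.08 (edgeR adjusted p 0.000134) had the same sign in 8 of 8 clusters. Spry2, a feedback inhibitor induced by ERK signalling, was at 72.7 and 68.1 CPM with hairpin 1 and at 115 and 101 CPM with hairpin 2 (0.65 ± 0.05). The receptor gene Egfr was the member called lower, at 18.5 and 23.4 CPM with hairpin 1 and at 8.78 and 11.1 CPM with hairpin 2 (-1.04 ± 0.12).

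Genes of TGF-beta, activin and BMP signalling were called lower in 11 of 24 and higher in 5 (median -0.26). The members with the largest higher values encode secreted antagonists: Fst (follistatin, which binds activin) was at 274 and 141 CPM with hairpin 1 and at 679 and 512 CPM with hairpin 2 (1.59 ± 0.19), and Grem1 (gremlin 1, which binds BMPs) at 2090.2 and 1868 CPM with hairpin 1 and at 3538 and 3564 CPM with hairpin 2 (0.88 ± 0.07). The ligand gene Tgfb3 was at 52.4 and 58.7 CPM with hairpin 1 and at 26.1 and 28.8 CPM with hairpin 2 (-0.98 ± 0.07). Without hairpin 1 anti-PD1 the list had 7 lower and 3 higher, without hairpin 2 anti-PD1 8 and 3, and without hairpin 2 IgG 6 and 5. Among 19 angiogenic ligands and receptors 4 were called higher and 6 lower (median -0.13), with 1 higher when either anti-PD1 library was left out. Vegfc, a lymphatic growth factor, was at 16.5 and 21.0 CPM with hairpin 1 and at 4.57 and 5.90 CPM with hairpin 2 (-1.80 ± 0.17). The platelet-derived growth factor genes Pdgfb (33.6 and 45.1 CPM against 8.98 and 14.9 CPM; -1.69 ± 0.18) and Pdgfc (48.2 and 55.0 CPM against 17.6 and 21.0 CPM; -1.38 ± 0.09) were lower too, while Angptl4, a lipoprotein lipase inhibitor, was higher (20.0 and 27.7 CPM against 66.9 and 57.9 CPM; 1.44 ± 0.14).

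Cell cycle genes differed by small amounts in tumour-line cells. Of 33 S phase genes 11 were called lower and 0 higher (median -0.18), and of 35 mitosis genes 2 and 0 (median -0.19). Mcm5, a subunit of the replicative helicase, was at 47.2 and 55.8 CPM with hairpin 1 and at 33.9 and 32.4 CPM with hairpin 2 (-0.60 ± 0.08). The mitosis count moved from 31 called lower without hairpin 1 IgG to 0 when either anti-PD1 library was left out, and was 11 without hairpin 2 IgG, 10 without a filter on low counts and 4 in DESeq2. The S phase count was 17 without hairpin 1 IgG and 5 when either anti-PD1 library was left out. Cdkn1a, which encodes the CDK inhibitor p21, was at 117 and 109 CPM with hairpin 1 and at 197 and 221 CPM with hairpin 2 (0.92 ± 0.08, edgeR adjusted p 0.000534), in a list of CDK inhibitors, D cyclins and p53 targets with 9 of 26 called higher and 4 lower (median 0.07).

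Embryonic growth genes included the largest difference of the tumour-line genes named here. H19, an imprinted non-coding RNA, was at 29.9 and 34.1 CPM with hairpin 1 and at 0.770 and 0.318 CPM with hairpin 2, with controls at 0.267 and 0.726 CPM. Hairpin 1 libraries alone expressed it above 1 CPM (-5.86 ± 0.36, edgeR adjusted p 0.000206, -6.78 without hairpin 2 IgG and -5.17 without hairpin 2 anti-PD1). Lin28b, a repressor of let-7 maturation, was at 12.8 and 17.4 CPM with hairpin 1 and at 3.53 and 3.60 CPM with hairpin 2 (-2.04 ± 0.18), and Mest, another imprinted gene, at 14.7 and 13.5 CPM with hairpin 1 and at 3.22 and 4.47 CPM with hairpin 2 (-1.84 ± 0.16). In the whole list 6 of 21 were called lower and 2 higher (median -0.05), so these 3 genes were not typical of it. Positional transcription factors were called higher in 9 of 25 and lower in 3 (median 0.01), among them Hoxb9 at 1.51 and 1.66 CPM with hairpin 1 and at 3.79 and 4.02 CPM with hairpin 2 (1.34 ± 0.14) and Osr2 at 42.5 and 45.3 CPM with hairpin 1 and at 27.7 and 22.1 CPM with hairpin 2 (-0.79 ± 0.10). Without hairpin 1 anti-PD1 5 of them were called higher.

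Glycolysis and hypoxia genes showed no common direction in the tumour-line sums, with 3 of 31 called higher and 7 lower (median -0.09). Within each of 8 large clusters, however, the median of the list was negative (-0.59 to -0.21). Eno1 (enolase 1) was at 495 and 481 CPM with hairpin 1 and at 316 and 367 CPM with hairpin 2 (-0.48 ± 0.08). The amino acid stress (ATF4) list had 6 of 31 called higher and 6 lower, and the antioxidant (NRF2) list 6 and 8 of 27. For nuclear oxidative phosphorylation genes the counts were 1 and 8 of 29, with a median of -0.08. Leaving out any 1 hairpin library gave 1 to 3 of these called lower. The glycolysis list had 4 called lower and 6 higher without hairpin 2 IgG, with a median of 0.08, and the NRF2 count called lower was 5 without hairpin 1 IgG, hairpin 1 anti-PD1 or hairpin 2 IgG.

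Other genes named by rank fell into no list. Higher in hairpin 2 were Slc14a1, a urea transporter, at 59.8 and 27.1 CPM with hairpin 1 and at 214 and 168 CPM with hairpin 2 (2.22 ± 0.24), and Notum, a secreted inhibitor of Wnt ligands, at 57.3 and 37.6 CPM with hairpin 1 and at 170.5 and 171 CPM with hairpin 2 (1.90 ± 0.15). Stra6, a retinol uptake receptor, was at 19.4 and 13.01 CPM with hairpin 1 and at 57.3 and 56.2 CPM with hairpin 2 (1.85 ± 0.16), and Akr1c18, a steroid-converting reductase, at 399.6 and 324 CPM with hairpin 1 and at 1196 and 1011 CPM with hairpin 2 (1.65 ± 0.07). In each of them both hairpin 2 libraries were above both hairpin 1 libraries. Tbx20, Olfm1, Sgip1 and Nefl completed the ranking, at 1.85 ± 0.33 (2.72 without hairpin 1 IgG), 1.85 ± 0.13, 1.78 ± 0.17 and 1.77 ± 0.20.

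Lower in hairpin 2 by the same rule were Stmn2, a regulator of microtubules, at 60.2 and 94.1 CPM with hairpin 1 and at 9.08 and 10.1 CPM with hairpin 2 (-2.96 ± 0.25), and the phospholipase gene Pla2g16, at 40.4 and 48.1 CPM with hairpin 1 and at 4.16 and 6.77 CPM with hairpin 2 (-2.99 ± 0.16). Cotl1, an actin-binding protein, was at 40.6 and 55.5 CPM with hairpin 1 and at 6.64 and 9.97 CPM with hairpin 2 (-2.50 ± 0.11), and Penk, the precursor of enkephalin peptides, at 104 and 80.8 CPM with hairpin 1 and at 23.8 and 27.9 CPM with hairpin 2 (-1.79 ± 0.13). Groups did not overlap in these 4 genes. Nrep, Dock8, S100a16 and Prss23 had -2.34 ± 0.19, -2.10 ± 0.09, -2.04 ± 0.07 and -1.91 ± 0.07.

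**Figure D2:**
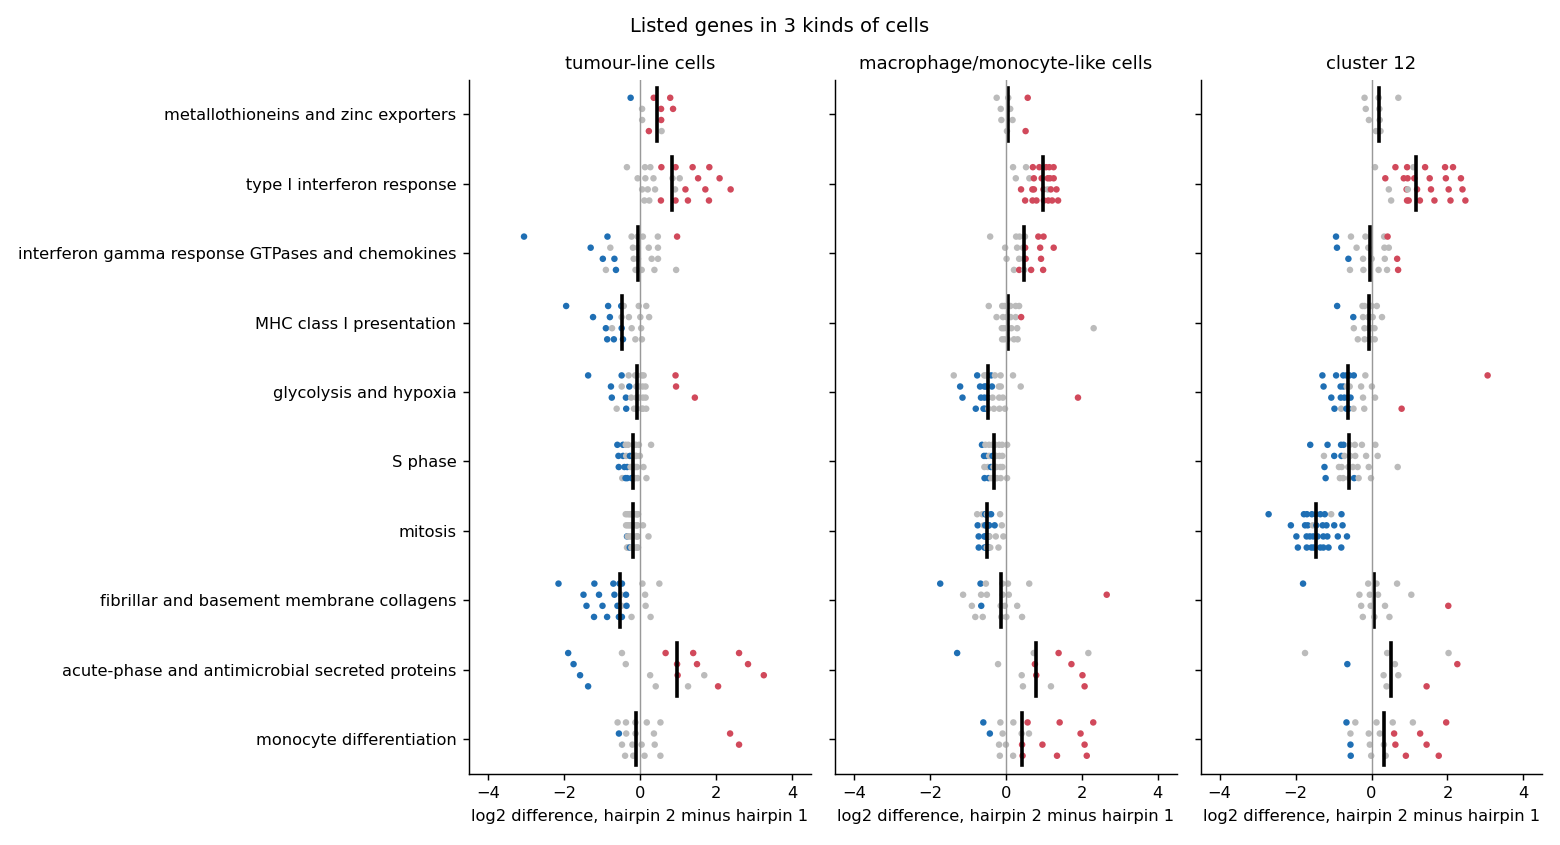
Log2 difference (hairpin 2 minus hairpin 1) of each tested gene, 1 point per gene, by list, in tumour-line cells, macrophage/monocyte-like cells and cluster 12. Red points were called higher and blue points lower, grey points were not called, and black bars are medians. The type I interferon medians are 0.85, 0.97 and 1.16, the median of the collagen list in tumour-line cells is -0.54, and the mitosis median in cluster 12 is -1.45.

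The control line was set beside the hairpin lines gene by gene. On the log2 scale of mean CPM + 0.5, the control mean was nearer to hairpin 2 in 3773 of the 4762 called tumour-line genes (79.2%) and in 67.9% of all tested genes. This held for 90.1% of the genes called lower in hairpin 2 and 69.0% of those called higher. Of the 26 named tumour-line genes 25 lay nearer to hairpin 2, the exception being Stra6, at 16.2 and 18.5 CPM in the control line. In macrophage/monocyte-like cells the share was 655 of 893 called genes (73.3%, all tested genes 54.6%), and in cluster 12 it was 682 of 851 (80.1%, all tested genes 59.1%). These are positions and carry no test.

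Median differences varied by chromosome in tumour-line cells. The log2 medians were lowest on chromosomes 3 (-0.12), 15 (-0.12) and X (-0.10) and highest on chromosomes 12 (0.09) and 4 (0.07), without a test. Of tested genes 24.7% on chromosome 3, 27.6% on chromosome 15 and 25.5% on X were called lower, against 14.4% over all genes. In macrophage/monocyte-like cells the medians ran from -0.04 to 0.02. Restricted to genes that averaged 20 CPM or more, the tumour-line medians of chromosomes 3, 15 and X were -0.10, -0.12 and -0.06, and those of chromosomes 4 and 12 were 0.10 and 0.13. In windows of 10000000 bases with at least 20 tested genes, the lowest tumour-line median was -0.44 on X from 140000001 to 150000000 (mm10, 21 genes, 52.4% called lower). A window of chromosome 15 from 50000001 to 60000000 had -0.29 (48 genes, 45.8% called lower). Xist, the RNA that silences 1 X chromosome, was at 99.7 and 135 CPM with hairpin 1 and 61.8 and 45.5 CPM with hairpin 2. It was used to define the tumour-line cells, and its levels are a description.

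**Figure D3:**
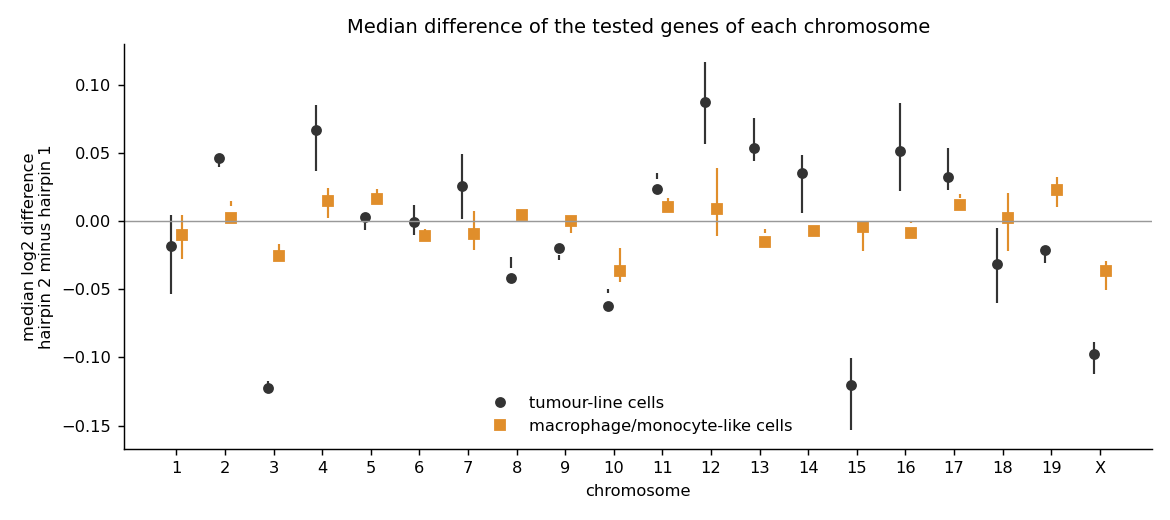
Median log2 difference (hairpin 2 minus hairpin 1) of tested genes by chromosome, in tumour-line cells and in macrophage/monocyte-like cells. Vertical lines join the medians of the matched differences under IgG and under anti-PD1. Tumour-line medians spread from -0.12 to 0.09, while the macrophage/monocyte-like medians stay between -0.04 and 0.02.

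Macrophage/monocyte-like cells came from clusters 13 (led by Lyve1, Cd163 and Mrc1), 14 (Mki67) and 15 (Chil3, Plac8, Rsad2 and Ly6c2). They numbered 766, 1146, 815 and 987 cells in cluster 13, 80, 111, 48 and 63 in cluster 14, and 147, 312, 202 and 255 in cluster 15, with hairpin 1 before hairpin 2. Of 11907 genes tested 893 (7.50%) differed, 471 higher (3.96%) and 422 lower (3.54%) in tumours of hairpin 2. The count was 249 without hairpin 2 IgG, 391 without hairpin 2 anti-PD1 and 281 in DESeq2. Host cells carry no hairpin, so the comparison describes cells from tumours of different lines.

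Most type I interferon genes were higher with hairpin 2 here too. Of 28 tested type I interferon genes 23 were called higher, against 3.96% of all tested genes, and 0 lower. Their median was 0.97 (all tested genes -0.00). Isg15 was at 57.6 and 88.2 CPM with hairpin 1 and at 165 and 163 CPM with hairpin 2, with controls at 120.2 and 147 CPM. The hairpin 1 libraries were the lowest of the 6 (1.15 ± 0.11, edgeR adjusted p 2.29e-06). Rsad2 was at 56.0 and 111 CPM with hairpin 1 and at 229 and 201 CPM with hairpin 2 (1.38 ± 0.17, with a median of 0.57 over the large clusters), and Mx1, an interferon-induced gene, at 12.9 and 18.1 CPM with hairpin 1 and at 49.0 and 32.6 CPM with hairpin 2 (1.33 ± 0.22). The count was 16 without hairpin 2 IgG and 17 to 25 over the planned changes of tool, scaling, filter, model terms and doublets. Rsad2 is among the leading genes of cluster 15, and the part of the cluster mix in its difference was not tested.

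Of 22 interferon gamma genes 10 were called higher in these cells and 0 lower (median 0.48). Igtp, an immunity-related GTPase, was at 21.8 and 20.8 CPM with hairpin 1 and at 43.1 and 39.4 CPM with hairpin 2 (0.93 ± 0.15, edgeR adjusted p 0.000419), and Gbp8 at 30.9 and 24.0 CPM with hairpin 1 and at 58.6 and 51.3 CPM with hairpin 2 (0.98 ± 0.13). The count called higher was 2 without hairpin 2 IgG, 6 without hairpin 2 anti-PD1 and 2 in DESeq2. The difference between the cell classes was not tested. MHC class I genes gave 1 call higher and 0 lower among 23 tested (median 0.05).

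Arg1, Vegfa and many genes of glycolysis were lower in tumours of hairpin 2. Arg1 (arginase 1), which depletes arginine, was at 2168 and 2752 CPM with hairpin 1 and at 605 and 1100.2 CPM with hairpin 2, with controls at 1679 and 1731 CPM. Both hairpin 2 libraries were below all 4 others (-1.58 ± 0.12, edgeR adjusted p 5.98e-08). Vegfa, the main blood vessel growth factor, was at 138 and 119 CPM with hairpin 1 and at 62.4 and 56.0 CPM with hairpin 2 (-1.14 ± 0.11, edgeR adjusted p 1.20e-06). The glycolysis and hypoxia list held 31 tested genes with 14 calls lower and 1 higher (median -0.46), with Eno1 at 404 and 421 CPM with hairpin 1 and at 208 and 277 CPM with hairpin 2 (-0.79 ± 0.09) and the mitophagy receptor gene Bnip3 at 204 and 191 CPM with hairpin 1 and at 103 and 134 CPM with hairpin 2 (-0.75 ± 0.10). Without hairpin 2 IgG the count called lower was 8.

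Arg1 belongs to a list of alternative activation in which 6 of 22 were called higher and 4 lower (median 0.04). Its scavenger receptor member Cd163 went the other way, at 36.2 and 29.6 CPM with hairpin 1 and at 62.4 and 55.7 CPM with hairpin 2 (0.82 ± 0.12). The lectin gene Mgl2 was lower (-0.86 ± 0.13). In the list of inflammatory activation 5 of 24 were called higher and 6 lower (median -0.09), with the cytokine gene Il1a at 31.1 and 21.7 CPM with hairpin 1 and at 4.48 and 9.20 CPM with hairpin 2 (-1.88 ± 0.26, -2.76 without hairpin 2 anti-PD1) and the LPS co-receptor gene Cd14 at 868 and 934 CPM with hairpin 1 and at 605 and 676 CPM with hairpin 2 (-0.52 ± 0.07). Neither list moved as a group, and the count called higher without hairpin 2 IgG was 3 in the first and 1 in the second. In the second it was 2 without hairpin 1 IgG or hairpin 2 anti-PD1, and in the first the count called lower was 2 without hairpin 2 anti-PD1. DESeq2 called 2 lower in the first and 1 higher in the second.

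Most mitosis genes were lower as well. Of 35 mitosis genes 21 were called lower, against 3.54% of all tested genes, and 0 higher (median -0.48). Cenpf, a kinetochore protein, was at 119.6 and 129.96 CPM with hairpin 1 and at 72.1 and 82.6 CPM with hairpin 2 (-0.71 ± 0.10, edgeR adjusted p 6.85e-05). Leaving out 1 library gave 4 called lower without hairpin 2 IgG, 7 without hairpin 2 anti-PD1, 11 without hairpin 1 IgG and 19 without hairpin 1 anti-PD1, with medians between -0.55 and -0.42. DESeq2 called 4 lower, and 13 were called with doublets kept. Cluster 14, led by Mki67, held fewer of these cells in hairpin 2 libraries, as given above, and its part in the result was not tested. Of 33 S phase genes 7 were called lower and 0 higher (median -0.30), and of 27 cholesterol and fatty acid synthesis genes 5 and 1 (median -0.43). The S phase count was 1 when either hairpin 2 library was left out and 4 when either hairpin 1 library was. The cholesterol count called lower was 0 without hairpin 2 IgG, 2 without hairpin 2 anti-PD1, 10 without a filter on low counts and 9 in the 4 hairpin libraries alone. DESeq2 called 0 genes of either list, where edgeR called 7 and 5 lower.

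Several genes of classical monocytes, some of which lead cluster 15, were higher with hairpin 2. Of 21 monocyte differentiation genes 10 were called higher and 2 lower (median 0.43). Ly6c2, a surface marker of classical monocytes, was at 2.45 and 10.3 CPM with hairpin 1 and at 22.1 and 43.1 CPM with hairpin 2, with controls at 21.2 and 27.2 CPM (2.30 ± 0.26, edgeR adjusted p 7.67e-06, 3.36 without hairpin 1 anti-PD1). Chil3, a chitinase-like protein, was at 15.1 and 24.2 CPM with hairpin 1 and at 49.0 and 127 CPM with hairpin 2 and at 422 and 386 CPM in the control line, so hairpin 1 was the lowest line and hairpin 2 intermediate (2.13 ± 0.25, 1.28 without hairpin 2 anti-PD1). Plac8 was at 13.6 and 25.7 CPM with hairpin 1 and at 69.3 and 88.1 CPM with hairpin 2 (1.97 ± 0.14). The genes lower in hairpin 2 were Nr4a1, a nuclear receptor of patrolling monocytes (375 and 329.5 CPM against 247 and 228 CPM; -0.59 ± 0.08), and the fractalkine receptor gene Cx3cr1 (-0.42 ± 0.09). The Cx3cr1 call was lost without hairpin 1 IgG (-0.24) and without hairpin 2 IgG (-0.37), and the list's count called higher was 4 without hairpin 2 IgG and 6 in DESeq2. Nr4a1 also belongs to a list of immediate early genes. Of 22 tested there, 5 were called lower, against 3.54% of all tested genes, and 0 higher (median -0.14).

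Markers of neutrophils were present beside these genes. Their summed level in macrophage/monocyte-like cells overlapped between lines, at 591 and 809 CPM with hairpin 1 and 759 and 959 CPM with hairpin 2, with 8 of 15 tested called higher, 1 lower and Ly6g at 0, and their part in the result was not tested. Cxcr2, a chemokine receptor of neutrophils, was at 0.889 and 1.63 CPM with hairpin 1 and at 12.1 and 8.68 CPM with hairpin 2 (2.93 ± 0.37). Il1r2, a decoy receptor for interleukin 1, was at 25.8 and 35.2 CPM with hairpin 1 and at 106 and 115 CPM with hairpin 2 (1.83 ± 0.11). Ifitm1, an interferon-induced membrane protein, was at 16.7 and 24.9 CPM with hairpin 1 and at 98.7 and 90.7 CPM with hairpin 2 (2.14 ± 0.14, edgeR adjusted p 1.13e-08), while in tumour-line cells its difference was -2.13.

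RNA of the tumour line was present in the macrophage/monocyte-like sums. Akr1c18 was at 10.2 and 9.76 CPM with hairpin 1 and at 44.2 and 60.2 CPM with hairpin 2 (2.38 ± 0.19), which is 2.56%, 3.01%, 3.69% and 5.96% of its tumour-line level in the same libraries, hairpin 1 before hairpin 2. For Mmp3, at 11.3 and 8.86 CPM with hairpin 1 and at 49.7 and 46.3 CPM with hairpin 2 (2.23 ± 0.17), these shares were 2.94%, 3.22%, 4.68% and 5.20%, and for Xist they were 4.24%, 3.63%, 4.46% and 10.4%. These genes were called higher in hairpin 2 in the tumour-line cells too, apart from Xist, and the part of tumour-line RNA in the macrophage values was not tested.

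Other genes named by rank in macrophage/monocyte-like cells were Ms4a4c, Sorl1, Hp and Saa3, higher in hairpin 2 at 1.75 ± 0.12, 1.63 ± 0.13, 2.08 ± 0.24 (3.17 without hairpin 1 anti-PD1) and 1.73 ± 0.28 (2.49 without hairpin 1 anti-PD1). The Saa3 call was lost without hairpin 2 anti-PD1 (0.91) and in DESeq2. Lower in hairpin 2 was the chondroitin sulphate proteoglycan gene Cspg4, at 63.8 and 83.0 CPM with hairpin 1 and at 14.5 and 20.5 CPM with hairpin 2 (-2.07 ± 0.19). Nt5e (CD73), which makes adenosine from AMP, was at 120.3 and 129 CPM with hairpin 1 and at 47.3 and 42.6 CPM with hairpin 2 (-1.51 ± 0.12), and Gatm, an enzyme of creatine synthesis, at 203 and 193 CPM with hairpin 1 and at 78.6 and 79.4 CPM with hairpin 2 (-1.35 ± 0.10). In these 3 genes both hairpin 2 libraries were below both hairpin 1 libraries. Col14a1, AA467197, the arginine transporter gene Slc7a2, Fam20c and Tnip3 had -1.73 ± 0.17, -1.57 ± 0.16 (-2.17 without hairpin 2 anti-PD1), -1.57 ± 0.20, -1.36 ± 0.17 and -1.31 ± 0.18.

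**Figure D4:**
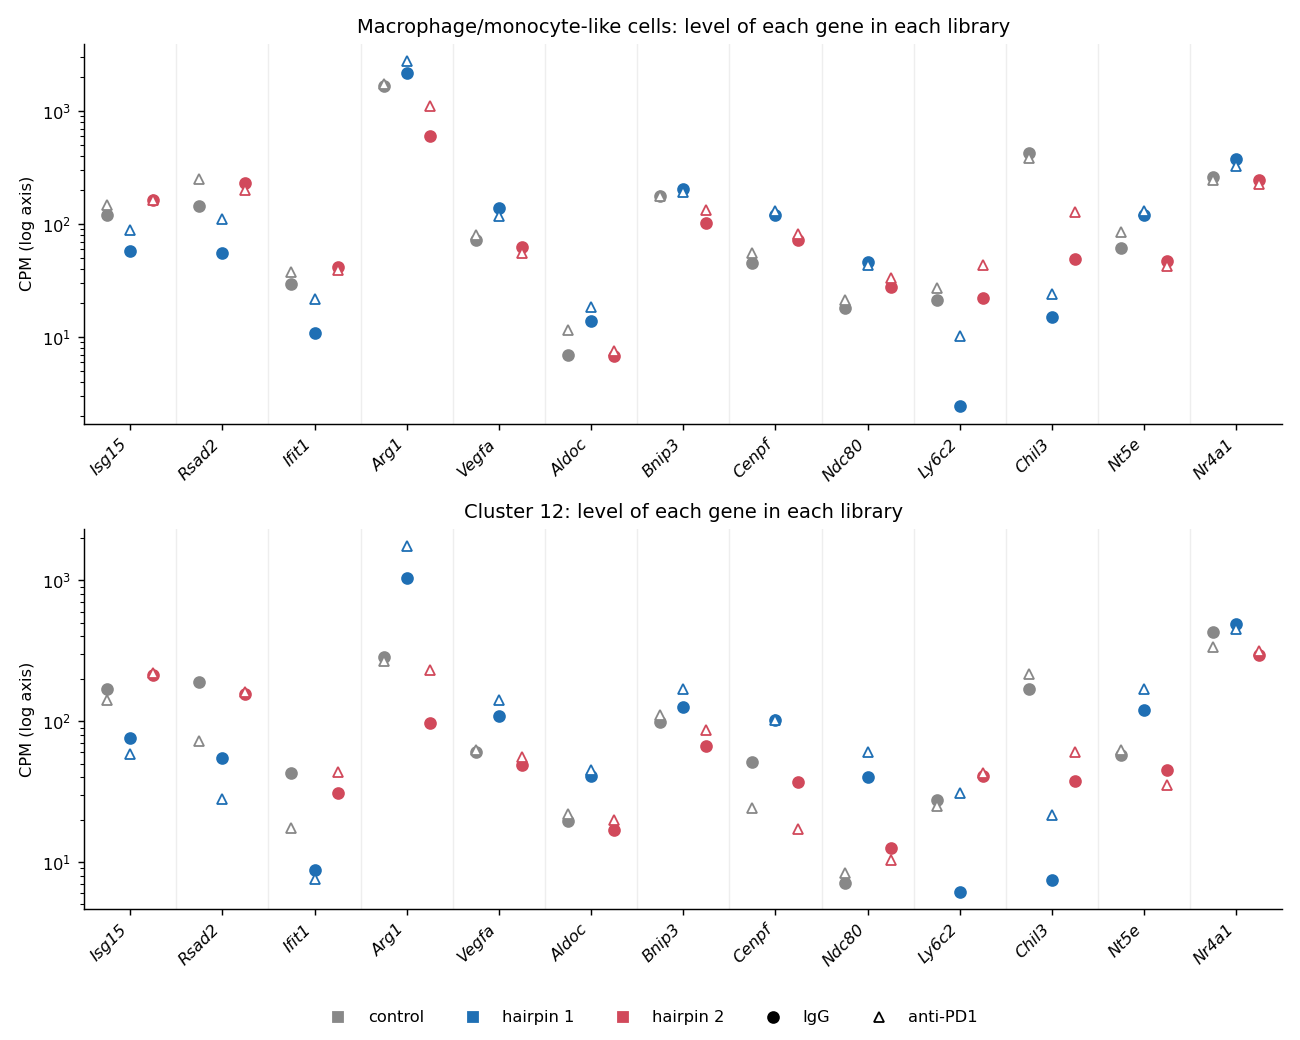
Level (CPM, log axis) of named genes in macrophage/monocyte-like cells and cluster 12, 1 point per library, by line and treatment. Isg15 is lowest in the hairpin 1 libraries and Arg1 lowest in the hairpin 2 libraries in both units.

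Cluster 12 was described by number, because its leading genes are those of MHC class II (H2-Eb1, H2-Ab1, H2-Aa, Cd74, Ciita) with Mgl2 of the dendritic cell markers, beside macrophage markers. It held 503, 465, 999 and 903 cells of the 4 libraries, hairpin 1 before hairpin 2. Of 10550 genes tested 851 (8.07%) differed, 397 higher (3.76%) and 454 lower (4.30%) in hairpin 2. The count was 306 in DESeq2 and 540 or 552 when the anti-PD1 library of hairpin 1 or of hairpin 2 was left out.

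In cluster 12 the interferon list had 23 of 28 genes called higher, against 3.76% of all tested genes, and 0 lower, with a median of 1.16 (all tested genes -0.00). Ifit2, an antiviral RNA-binding protein, was at 34.7 and 26.9 CPM with hairpin 1 and at 139 and 129 CPM with hairpin 2, with controls at 89.0 and 76.0 CPM (2.08 ± 0.15, edgeR adjusted p 9.60e-08). Hairpin 1 was the lowest line and the lines did not overlap. Isg15 was at 76.0 and 58.5 CPM with hairpin 1 and at 214 and 222 CPM with hairpin 2 (1.66 ± 0.13), Rsad2 at 54.9 and 28.1 CPM with hairpin 1 and at 155 and 161 CPM with hairpin 2 (1.94 ± 0.24, 2.67 without hairpin 2 IgG), and Cd38, an NAD-degrading surface enzyme, at 25.9 and 32.2 CPM with hairpin 1 and at 85.7 and 101 CPM with hairpin 2 (1.65 ± 0.16). Interferon gamma genes were called higher in 3 of 20 and lower in 3 (median -0.04), and the GTPase gene Iigp1 was among the lower ones, at 131 and 201 CPM with hairpin 1 and at 88.7 and 88.5 CPM with hairpin 2 (-0.91 ± 0.14).

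Most mitosis genes were lower in cluster 12 with hairpin 2. Of 35 genes 33 were called lower in hairpin 2, against 4.30% of all tested genes, and 0 higher (median -1.45). Cenpf was at 102 and 102 CPM with hairpin 1 and at 37.0 and 17.1 CPM with hairpin 2 (-1.98 ± 0.21, edgeR adjusted p 8.34e-06, -2.61 without hairpin 1 IgG), and the kinetochore gene Ndc80 at 40.0 and 60.3 CPM with hairpin 1 and at 12.7 and 10.3 CPM with hairpin 2 (-2.12 ± 0.26). Bub1, a kinase of the spindle checkpoint, was at 24.6 and 29.9 CPM with hairpin 1 and at 4.11 and 4.26 CPM with hairpin 2 (-2.71 ± 0.36). With 1 anti-PD1 library left out the mitosis count called lower was 22 (hairpin 1) or 24 (hairpin 2), and with 1 IgG library left out 31 or 33. DESeq2 called 19 lower. S phase genes were called lower in 9 of 31 and higher in 0 (median -0.59), and the count called lower was 3 to 6 with 1 hairpin library left out and 0 in DESeq2.

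Arg1 and many glycolysis genes were lower in cluster 12 too. Arg1 was at 1035 and 1742 CPM with hairpin 1 and at 97.3 and 229.9 CPM with hairpin 2, with controls at 286 and 269 CPM, so the hairpin 1 libraries were the highest of the 6 (-3.15 ± 0.18, edgeR adjusted p 2.02e-09). Fn1 (fibronectin) was at 848 and 1173 CPM with hairpin 1 and at 179.9 and 215 CPM with hairpin 2 (-2.38 ± 0.10, edgeR adjusted p 2.41e-11). In the glycolysis and hypoxia list 29 genes were tested, with 17 calls lower and 2 higher (median -0.62), with Vegfa at 109 and 142 CPM with hairpin 1 and at 48.7 and 55.8 CPM with hairpin 2 (-1.29 ± 0.14) and Bnip3 at 127 and 169 CPM with hairpin 1 and at 66.5 and 87.1 CPM with hairpin 2 (-0.98 ± 0.13). Without hairpin 1 anti-PD1 the count called lower was 10, and in DESeq2 it was 11. Of 27 cholesterol and fatty acid synthesis genes 8 were called lower and 0 higher (median -0.69). Their count called lower was 3 without hairpin 1 IgG, 5 without hairpin 2 IgG, 2 in DESeq2 and 13 in the 4 hairpin libraries alone.

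Genes of lipid-associated macrophages were called higher in 11 of 23 and lower in 4 (median 0.36), and higher in 6 in DESeq2. The fatty acid binding protein gene Fabp5 was at 195 and 257 CPM with hairpin 1 and at 529 and 527 CPM with hairpin 2 (1.21 ± 0.11), and the integrin gene Itgax (CD11c) at 108 and 120.0 CPM with hairpin 1 and at 188 and 190.5 CPM with hairpin 2 (0.70 ± 0.12). The tetraspanin gene Cd9 went the other way, at 331 and 359 CPM with hairpin 1 and at 227 and 176 CPM with hairpin 2 (-0.82 ± 0.12). Nt5e (120.4 and 168 CPM against 45.2 and 35.2 CPM; -1.85 ± 0.17) and the inhibitory lectin gene Clec12a (234 and 149 CPM against 41.8 and 72.5 CPM; -1.79 ± 0.21, -2.44 when hairpin 1 anti-PD1 was left out and -1.13 when hairpin 1 IgG was) were also lower in hairpin 2. Markers of mast cells and basophils stood apart in 1 library, at 364 CPM in hairpin 2 IgG and 14.5 to 19.9 CPM in the other hairpin libraries (4 of 6 tested called higher), and their part in these results was not tested.

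Other host classes had too few cells for a fit, and their list sums carry no test. In neutrophil-like cells the summed type I interferon list was at 3769 and 6643 CPM with hairpin 1 and at 9503 and 11395 CPM with hairpin 2. Both hairpin 2 libraries were above both hairpin 1 libraries. Endothelial-like cells held 692 and 969 CPM against 1525 and 3326 CPM, and T and NK lymphocyte-like cells 1271 and 1754 CPM against 2781 and 2367 CPM. Osteoclast-like cells showed the same order at 384 and 386 CPM against 615 and 504 CPM. In mast cell and basophil-like cells, whose cluster held both Xist and Y-linked RNA, the lines overlapped, at 456 and 343 CPM against 998 and 441 CPM. Fibroblast and pericyte-like cells were at 1472 and 1473 CPM with hairpin 1 and 1259 and 1276 CPM with hairpin 2. These sums rest on 26 and 65 UMIs against 79 and 63 UMIs. Their counting intervals overlapped, at 962 to 2157 and 1137 to 1878 CPM against 997 to 1569 and 980 to 1632 CPM. No order of the lines is read from them. Glycolysis and hypoxia sums had no common order in these classes. They were lower with hairpin 2 in neutrophil-like and endothelial-like cells. In mast cell and basophil-like cells they were higher, at 6483 and 5398 CPM against 8864 and 7312 CPM. In the other classes the lines overlapped. Mitosis sums showed the same orders, and in osteoclast-like cells they overlapped at 5142 and 2696 CPM against 2118 and 2806 CPM.

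Shares of cells are given without a test. Macrophage/monocyte-like cells joined with cluster 12 by a coarser clustering (resolution 0.5) made up 29.3% and 32.9% of cells in hairpin 1 libraries and 25.9% and 26.5% in hairpin 2 libraries. Apart, macrophage/monocyte-like cells held 19.7% (95% exact binomial interval 18.6% to 20.8%) and 25.7% (24.6% to 26.9%) against 14.0% (13.2% to 14.8%) and 15.99% (15.2% to 16.8%), and cluster 12 held 9.99% and 7.63% against 13.1% and 11.1%. Genes that lead these clusters, such as Cd163, Chil3, Ly6c2 and Ciita, differed between the lines, so the split between them is not read as a change of cell numbers. Osteoclast-like cells, led by Ctsk and Acp5, held 1.75% and 2.84% with hairpin 1 and 0.550% and 0.711% with hairpin 2. Endothelial-like cells held 0.675% and 0.886% against 1.21% and 1.25%. Tumour-line cells made up 66.0% and 60.6% against 68.1% and 68.1%. T and NK lymphocyte-like cells were few, at 0.476% and 0.361% against 0.930% and 0.515%, and neutrophil-like cells at 0.754% and 1.33% overlapped with 1.31% and 1.80%. Intervals cover counting error only, and tissue dissociation and barcode selection act on these shares.

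**Figure D5:**
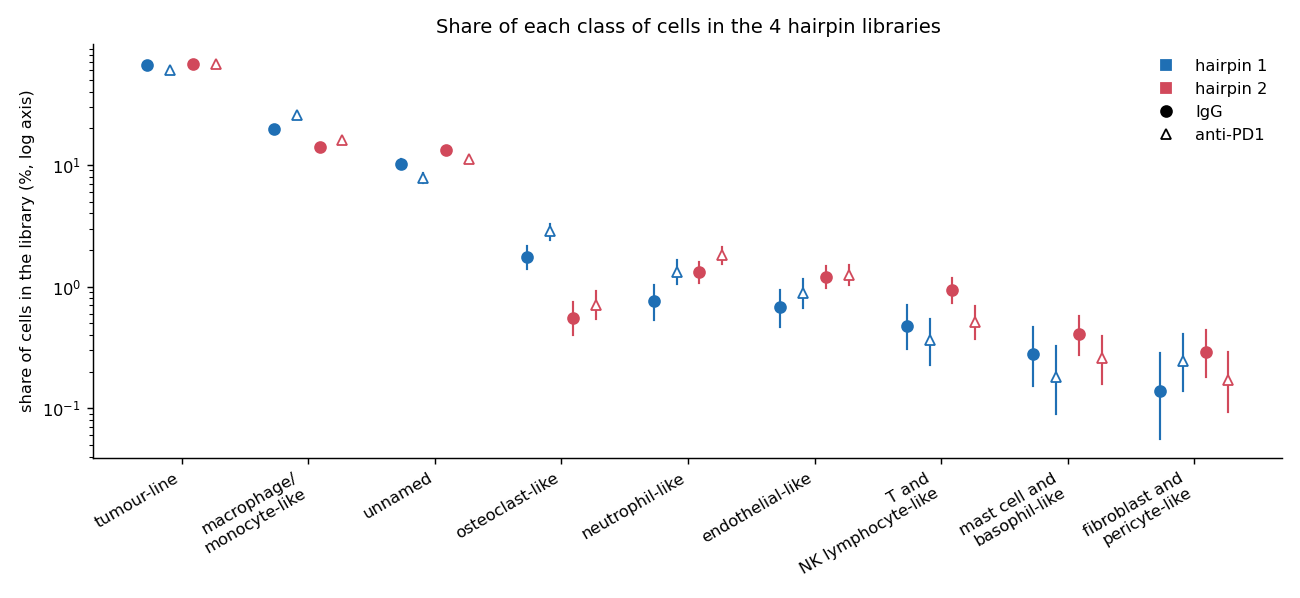
Share of cells (percent, log axis) of each class in the 4 hairpin libraries, with 95% exact binomial intervals as bars. The class named unnamed joins cluster 12 with the small cluster 9. Osteoclast-like shares of 0.550% and 0.711% in hairpin 2 lie below 1.75% and 2.84% in hairpin 1.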

How the data were processed

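The deposited matrices hold UMI counts per gene and barcode, not normalized, which the authors made with Cell Ranger 7.0.1 on mm10, per the submitters' processing notes. Barcodes passed the limits given at the start, and doublets were marked with scrublet in scanpy 1.11.5 (expected rate 0.06, which removed 0.866% to 1.66% of a library) and removed. Counts were log-normalized, and 2000 variable genes, 30 principal components and 15 neighbours gave 20 Leiden clusters at resolution 1. A cluster was named "X-like" where at least 3 markers of a list, and the mean of that list, were raised by at least 1 on the log2 scale and its 10 leading genes held no more markers of any other list. Cluster 14 held no macrophage marker among its 10 leading genes.

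For each library and class, the UMI counts were added up and tested in edgeR 4.0.16 (quasi-likelihood, TMM, filterByExpr) in R 4.3.3, with line and treatment as terms over all 6 libraries. The contrast was hairpin 2 minus hairpin 1, with Benjamini-Hochberg adjusted p under 0.05 over all tested genes as the call. No class beyond the tumour-line and macrophage/monocyte-like cells was both named and large enough for a fit, so cluster 12 was tested by number, a choice made after seeing the data. DESeq2 1.42.0, other scaling, no filter, the 4 hairpin libraries alone, no treatment term, doublets kept, each hairpin library left out and fits within clusters were the alternatives. The scripts were tested on simulated data. Genes at a few CPM rest on few UMIs, and intervals of shares cover counting error only.

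Named genes are Slc39a9, Cdkn2a, the 4 genes of the promoters shown, the called genes with the largest differences of 1 sign in both treatments (12 in each direction with a mean of at least 20 CPM in tumour-line cells, 10 in macrophage/monocyte-like cells, 5 with at least 50 CPM in cluster 12), and up to 4 called members of each list in each direction. A few of the genes this rule names are not reported here. The members and lists were chosen with earlier results of these data known. Gene positions are those of GENCODE on mm10.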

Additional observations from a re-analysis of the deposited data

Results flagged for a closer look

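Of 86 genes of the lists that were called in both classes, 42 were higher in hairpin 2 in both, 26 were lower in both and 18 went opposite ways. The same split over all genes called in both classes is not given here, so 18 is not read as many or few. In these 18, every matched difference between hairpin 2 and hairpin 1 had 1 sign in macrophage/monocyte-like cells and the opposite sign in tumour-line cells. The difference between the classes was not tested. Lower with hairpin 2 in macrophage/monocyte-like cells and higher in tumour-line cells were Egr3, an immediate early transcription factor, with log2 differences of -1.61 and 0.82, and Arg1, with -1.58 and 0.55. Lif, a cytokine of the IL-6 family, had -1.28 and 0.98, and Cd59a, an inhibitor of complement, -1.11 and 0.56. The same order held for Cd9 (-0.74 and 0.58), Nr4a2 (-0.73 and 0.74), Dusp5 (-0.57 and 0.30), Pdpn (-0.53 and 0.45), Cd14 (-0.52 and 0.85), Ccnd1 (-0.34 and 0.48), Fth1 (-0.27 and 0.61) and Trem2 (-0.26 and 1.14). The tumour-line call of Arg1 was lost without hairpin 1 anti-PD1 (0.36) and without hairpin 2 anti-PD1 (0.37).

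Higher with hairpin 2 in macrophage/monocyte-like cells and lower in tumour-line cells were Gbp8, with 0.98 and -0.86, and Lox, which cross-links collagen. Lox was at 0 and 0.904 CPM with hairpin 1 and 3.10 and 3.42 CPM with hairpin 2 in macrophage/monocyte-like cells, so its fitted 2.66 ± 0.69 rests on few UMIs and on the prior count, and it was at -0.48 in tumour-line cells. Vcam1 had 0.95 and -1.66, Mmp9 0.71 and -1.09, Fabp5 0.32 and -1.21, and Tgfbi 0.26 and -0.27. The macrophage/monocyte-like call of Fabp5 was lost without hairpin 1 IgG (0.097), hairpin 2 IgG (0.26) or hairpin 2 anti-PD1 (0.39). The tumour-line call of Gbp8 was lost without hairpin 1 IgG (-0.49) or hairpin 2 IgG (-0.43), and its median within large tumour-line clusters was 0.078. The share of fibroblast and pericyte-like cells was lower with hairpin 2 by -0.0746 percentage points under anti-PD1 and higher by 0.149 points under IgG. These shares rest on few cells, their intervals overlap, and the difference between treatments was not tested.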

How the results depend on the processing

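The count of called genes in tumour-line cells was 4762, 2844 to 4267 with 1 hairpin library left out, and 88 to 1769 within single large clusters. In macrophage/monocyte-like cells it was 893, 281 in DESeq2, 249 to 814 with 1 hairpin library left out, 1513 with cluster 12 joined to the class (chosen after seeing the data), and 415 and 541 within the large clusters. In cluster 12 it was 851, 306 in DESeq2 and 540 to 619 with 1 hairpin library left out. Fits within clusters hold fewer cells, and fits without a library fewer samples.

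For single genes, 783 of 900 values with 1 hairpin library left out kept sign and call status (called or not called), 117 lost the call and 0 changed sign. DESeq2 kept the call status of 183 of 224 values and no treatment term that of 217 of 225. The 4 hairpin libraries alone kept 224 of 225, doublets kept 181 of 187, and other scaling or no filter 225 of 225 each. Within large clusters of the same class 131 of 185 genes kept 1 sign, 49 had mixed signs, and the median had the opposite sign for Tgtp2 (0.35), Gbp9 (0.10), Gbp8 (0.078), Hbegf (-0.017) and Hmga2 (-0.016), all in tumour-line cells. The cause was not tested. The difference in the T and NK lymphocyte-like share was 0.600 points at resolution 0.5 against 0.304. At resolution 0.5 this class held 530 cells of all libraries against 221, with the dendritic cell markers Ccl22 and Ccr7 among its leading genes. The values are thus not of the same cells. Among genes of at least 20 CPM, tumour-line medians were -0.10 on chromosome 3, -0.061 on X and 0.13 on chromosome 12. Cluster 12 was not run with doublets kept.

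Libraries of the lines are matched by treatment, which is a term of the model, so the 4 hairpin libraries alone form a paired fit. That fit called 4218 genes in tumour-line cells. The fit cannot separate the hairpin from the cell line that carries it, and genes at a few CPM are limited by depth.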
